A study of Mus musculus with 4 samples.

Results

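Chemokine receptors are G protein-coupled receptors that guide lymphocytes along gradients of secreted chemokines and hold them in tissue niches. In the intestine, Ccr6 marks lymphoid tissue inducer (LTi)-like group 3 innate lymphoid cells (ILC3s), which gather in cryptopatches and isolated lymphoid follicles, and Cxcr6 and Cxcr3 mark the NKp46+ILC3 and type 1 branch, whose transcription factor is T-bet. The 10 receptors described here, Ccr2, Ccr4, Ccr6, Ccr7, Ccr9, Cxcr3, Cxcr4, Cxcr5, Cxcr6 and Cx3cr1, were taken by gene symbol from the 53379 genes measured. All 10 were found, and all 10 had a mean above 1 FPKM in each group.

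Expression was measured by RNA-seq in small intestinal lamina propria ILC3s of mixed bone marrow chimeras, with 2 libraries for each donor origin. Controls were Thy1.2highThy1.1-CD45low cells from Thy1.2 Rag1-/-Smarca4f/f donors, called Brg1-sufficient, and Brg1-deficient cells were Thy1.2highThy1.1+CD45low cells from Thy1.1 Thy1.2 Rag1-/-Smarca4f/f donors that also carried a Cre transgene. Equal numbers of marrow cells from both donors were given to the same sublethally irradiated Rag2-/-Il2rg-/- hosts, a strain that lacks lymphocytes and ILCs of its own, and cells were taken 6 to 7 weeks after transfer. Both origins lack Rag1 and carry floxed Smarca4, the gene of Brg1, a catalytic subunit of the BAF chromatin-remodeling complex. They differ in the Cre transgene and also in the Thy1 allele, so the effects of Cre, Brg1 loss and the Thy1 allele cannot be told apart. The age of the mice and the number of hosts behind each library are not given in the sources used here.

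The targeted gene, Smarca4, was at 17.1 and 16.7 FPKM in controls, as against 9.98 and 9.03 FPKM in Brg1-deficient libraries. These values per gene do not separate the recombined transcript from the intact one. FPKM scales reads by transcript length and by library size, so levels of different genes can be set side by side. The sorted values of the 4 libraries were nearly equal, with 99.0% of 13693 ranks within 1% of each other, and their sequencing depth is not known. All of 9 ILC3 marker genes were measured above 1 FPKM, and 0 were lower and 0 higher at an unadjusted p under 0.05 (limma). Among all genes tested, 6.47% were lower and 6.12% higher at this limit. Thy1, on this list, was also part of the sort, so the list is no check of cell identity. Il7r was between 433 and 583 FPKM and Il22 between 8328 and 21159 FPKM over the 4 libraries. Brg1-sufficient library 1 was highest in ILC2 marker genes, which summed to 404 FPKM there and to 168 FPKM in the other control. In Brg1-deficient libraries they summed to 86.5 and 118 FPKM. Differences were tested with limma on log2(FPKM + 1) over the 14739 genes with a mean above 1 FPKM in either group. A log2 fold change is the Brg1-deficient minus the Brg1-sufficient mean on this scale, which understates the change of low genes. In these bulk samples, fewer cells of a type and less RNA per cell cannot be told apart.

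Ccr6, Ccr7, Ccr2, Ccr9 and Cxcr4 were lower in Brg1-deficient ILC3s at an unadjusted p under 0.05, and no receptor was higher. By the limits that the study set for its gene ontology analysis, here applied to the limma fit (p under 0.05, adjusted p under 0.4, a mean above 5 FPKM in either group and group means that differ by more than 0.5 in log2), 5 of the 10 were lower (Ccr2, Ccr6, Ccr7, Ccr9 and Cxcr4) and 0 were higher. Of all genes tested, 4.37% were lower and 3.85% higher by the same limits. With the limit at an adjusted p of 0.05 (limma, Benjamini-Hochberg), a stricter limit, 0 of the 10 were lower and 0 higher, where the shares of all genes were 0.224% and 0.0814%. At an unadjusted p under 0.05, the counts were 5 and 0, beside 6.47% and 6.12% of all genes. The groups did not overlap for 6 lower and 2 higher receptors, and 20.2% and 24.4% of all genes separated in this way. The median log2 fold change was -0.77 over the 10 receptors and 0.03 over all genes tested, and without Brg1-deficient library 2 that of the receptors was -0.49. The smallest p that an exact permutation test (two-sided) could reach for 1 gene in 2 against 2 libraries is 0.33, and the p-values given here therefore draw on a variance pooled over genes by limma. In fits that each lacked 1 library, the log2 fold change was -1.06 to -0.87 for Ccr6 and -2.55 to -1.45 for Ccr7. It was -1.43 to -0.94 for Ccr2, -1.16 to -0.43 for Ccr9 and -1.004 to -0.50 for Cxcr4. None of these 5 could change sign, since their groups did not overlap. With 1 library left in a group, counts of receptors by the limits are not given for these fits.

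**Figure D1:**
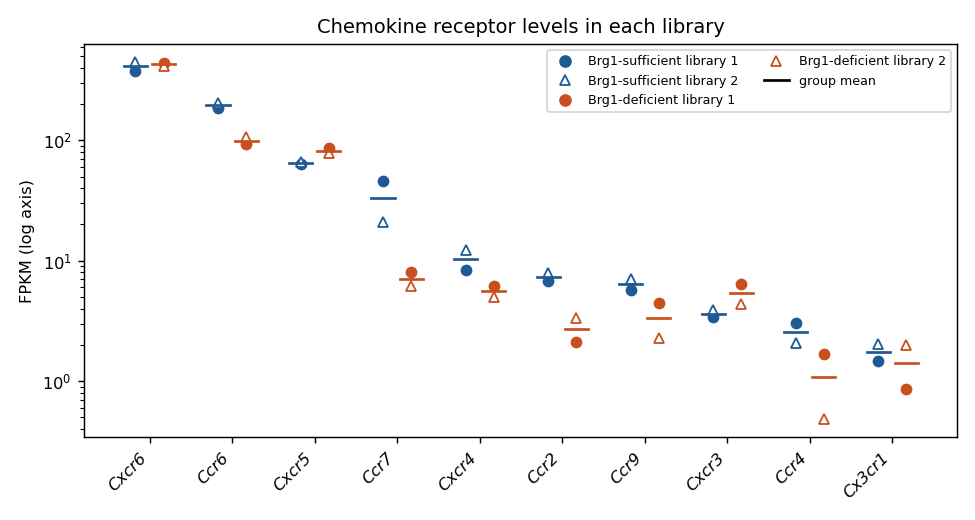
FPKM (log axis) of the 10 chemokine receptors in each library, ordered by their Brg1-sufficient mean. Filled circles are library 1 and open triangles library 2 of each group, and bars are group means. The 4 points of Cxcr6 lie together between 376 and 448 FPKM, whereas the Ccr6 points of the 2 groups are apart, at 186 and 203 against 92.9 and 106 FPKM.

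The promoters of receptors on both sides of this pattern are shown to give their sequence context. RefSeq promoters on GRCm38.p6 were matched for 8 of the 10 receptors, in 9 windows, since Ccr6 has 2 start sites in that table, and Ccr7 and Cxcr5 were not matched. Each window is the 250 bases before a start site, 5′ to 3′ on the strand of the gene. The start sites are those of RefSeq. Part or all of the Ccr9, Cxcr3 and downstream Ccr6 windows lies within the gene as annotated in GENCODE, the source of the gene positions given here. The first set holds both Ccr6 windows and the Ccr9 window, of receptors that were lower, and the second Cxcr6 and Cxcr3, which were not. Capitals mark matches, on either strand, to 4 short motifs of factors known in ILCs: T-box (GGTGTG), Runx (TGTGGT), ETS (GGAAGT) and E-box (CAGCTG).
Ccr6, upstream start (GRCm38.p6 chr17:8235793-8236042, plus strand): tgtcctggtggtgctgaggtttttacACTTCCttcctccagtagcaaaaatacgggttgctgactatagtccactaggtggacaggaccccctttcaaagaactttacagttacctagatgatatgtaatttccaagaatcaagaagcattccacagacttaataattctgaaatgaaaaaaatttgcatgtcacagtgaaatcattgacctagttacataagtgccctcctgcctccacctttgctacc
Ccr6, downstream start (GRCm38.p6 chr17:8242276-8242525, plus strand): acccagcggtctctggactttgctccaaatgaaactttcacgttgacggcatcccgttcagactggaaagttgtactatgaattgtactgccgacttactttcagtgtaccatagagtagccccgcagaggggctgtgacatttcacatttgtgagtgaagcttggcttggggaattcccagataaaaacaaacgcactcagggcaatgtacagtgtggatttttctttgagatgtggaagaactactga
Ccr9 (GRCm38.p6 chr9:123766961-123767210, plus strand): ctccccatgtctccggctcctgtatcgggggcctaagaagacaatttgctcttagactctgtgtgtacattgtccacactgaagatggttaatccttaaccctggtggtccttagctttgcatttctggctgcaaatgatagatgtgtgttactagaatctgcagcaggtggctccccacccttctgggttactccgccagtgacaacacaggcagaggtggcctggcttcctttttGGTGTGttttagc
Cxcr6 (GRCm38.p6 chr9:123806227-123806476, plus strand): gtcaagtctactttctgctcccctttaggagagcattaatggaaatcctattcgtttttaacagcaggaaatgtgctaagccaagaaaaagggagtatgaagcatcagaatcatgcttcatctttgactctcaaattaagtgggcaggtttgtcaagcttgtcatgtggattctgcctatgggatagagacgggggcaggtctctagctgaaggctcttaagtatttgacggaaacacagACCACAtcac
Cxcr3 (GRCm38.p6 chrX:101734148-101734397, minus strand): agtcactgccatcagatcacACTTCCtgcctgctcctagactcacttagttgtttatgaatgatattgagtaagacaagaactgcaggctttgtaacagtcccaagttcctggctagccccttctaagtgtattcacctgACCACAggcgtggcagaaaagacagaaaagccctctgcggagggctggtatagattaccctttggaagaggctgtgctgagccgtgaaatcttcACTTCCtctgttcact

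The upstream Ccr6 window held an ETS motif that begins 224 bases before the start, on the opposite strand. The downstream Ccr6 window held none of the 4 motifs, nor did the windows of Ccr2 and Cxcr4. The Ccr9 window held a T-box motif 13 bases before the start, and Cxcr6 a Runx motif 10 bases before it. The Cxcr3 window held a Runx motif and 2 ETS motifs and no T-box motif. Over the 9 windows, the T-box and E-box motifs were each found in 1, and the Runx and ETS motifs each in 3. Among 32851 promoter windows of the same length, 16.3% held the T-box motif, 14% the Runx, 19.7% the ETS and 13% the E-box motif. No matches overlapped in the windows printed. A match is only a match of letters, and binding was not measured here.

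Ccr6, the receptor for Ccl20 and the surface marker of LTi-like ILC3s, was lower in Brg1-deficient ILC3s. It was at 186 and 203 FPKM in controls, as against 92.9 and 106 FPKM in Brg1-deficient libraries. Both control libraries lay above both Brg1-deficient libraries, and the libraries within a group were close. The means were 195 ± 12.4 and 99.3 ± 9.14 FPKM (SD, n = 2 each), so the Brg1-deficient mean was 51.0% of the control mean. On the log2 scale the fold change was -0.96 (95% interval -1.32 to -0.61, adjusted p = 0.0901 from limma), with a range of -1.06 to -0.87 over the fits that each lacked 1 library. Ccr6 lies on chromosome 17 of GRCm38 (8236043 to 8257141, plus strand) and overlaps no other annotated gene.

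Ccr7, the receptor for Ccl19 and Ccl21 through which LTi-like ILC3s reach lymph nodes, had the lowest fold change of the 10. It was at 45.9 and 20.9 FPKM in controls, as against 8.05 and 6.11 FPKM in Brg1-deficient libraries. The groups did not overlap, but the control libraries differed from each other by more than either Brg1-deficient value. The mean was 4.72-fold higher in controls, and the log2 fold change was -2.0 (95% interval -2.96 to -1.03, adjusted p = 0.127 from limma). Ccr7 (chromosome 11, 99144196 to 99155077, minus strand) overlaps no other gene. Without Brg1-sufficient library 1 its log2 fold change was -1.45, and without Brg1-sufficient library 2 it was -2.55.

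Cxcr5, the receptor for Cxcl13, is also expressed by LTi-like cells and guides them into follicles. It was at 63.1 and 65.8 FPKM in controls, as against 85.9 and 77.7 FPKM in Brg1-deficient libraries, so its groups were apart in the direction opposite to Ccr6 and Ccr7. Its log2 fold change was 0.34 (95% interval -0.01 to 0.68, adjusted p = 0.407 from limma), which did not pass. The 3′ end of Cxcr5 (chromosome 9, 44511787 to 44561877, minus strand) overlaps exons of Bcl9l on the opposite strand, and Bcl9l was at 0.71 and 1.37 FPKM in controls and at 2.25 FPKM in both Brg1-deficient libraries. Whether reads were counted by strand is not given in the sources used here.

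Ratios between the 3 LTi receptors restate these differences. Cxcr5 was 0.339 and 0.324 times the level of Ccr6 in the control libraries, and 0.925 and 0.735 times in the Brg1-deficient libraries. The ratio of Ccr7 to Cxcr5 was 0.727 and 0.318 in controls and 0.0937 and 0.0786 in Brg1-deficient ILC3s. Neither ratio overlapped between the groups. They had to separate, since Ccr6 and Ccr7 were lower and Cxcr5 higher, each without overlap. Among 7 other genes on a list of LTi-like ILC3 markers, all of which were tested, 4 were lower at an unadjusted p under 0.05 (Cd4, Nrp1, Ltb and Cd81), 1 was higher (Tnfsf11) and 2 did not pass (Il17a and Lta, the latter also on the ILC3 list). The tetraspanin Cd81 was at 233 and 150 FPKM in controls, as against 34.0 and 37.6 FPKM in Brg1-deficient libraries. Lymphotoxin beta (Ltb) was at 473 and 491 against 243 and 317 FPKM, and Tnfsf11, which encodes RANKL, was at 62.8 and 50.9 against 110 and 76.3 FPKM. The summed level of the list was 1067 and 976 FPKM in controls and 615 and 650 FPKM in Brg1-deficient libraries, and its part in the receptor differences was not tested.

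Cxcr6, the receptor for the membrane-bound chemokine Cxcl16, was the most abundant receptor of the 10 in every library. It was at 376 and 448 FPKM in controls, as against 442 and 414 FPKM in Brg1-deficient libraries. The 2 groups overlapped, and both Brg1-deficient values lay between the control values. The group difference was 0.06 on the log2 scale (95% interval -0.32 to 0.44, adjusted p = 0.894 from limma), an interval that holds changes of either sign. The control mean was above that of 98.6% of genes tested. Cxcr6 (chromosome 9, 123806475 to 123811760, plus strand) lies within Fyco1, which is on the opposite strand, and shares no exon bases with it. Fyco1 was between 11.7 and 14.2 FPKM in the 4 libraries.

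Cxcr3, the receptor for the interferon-induced chemokines Cxcl9, Cxcl10 and Cxcl11 and a known target of T-bet in T cells, was low. The gene lies on chromosome X (101731535 to 101734269, minus strand). It was at 3.39 and 3.88 FPKM in controls, as against 6.42 and 4.39 FPKM in Brg1-deficient libraries. Both Brg1-deficient values were above both controls, and the log2 fold change was 0.45 (95% interval -0.18 to 1.08, adjusted p = 0.533 from limma). It was 0.22 without Brg1-deficient library 1 and 0.68 without Brg1-deficient library 2. Cx3cr1, the receptor for Cx3cl1 on monocytes, macrophages and some NK cells, was at 1.46 and 2.03 FPKM in controls, as against 0.86 and 1.98 FPKM in Brg1-deficient libraries. Its groups overlapped, and the log2 fold change was -0.21 (95% interval -1.13 to 0.71, adjusted p = 0.839 from limma), or 0.13 without Brg1-deficient library 1. The annotated Cx3cr1 locus (chromosome 9, 119901616 to 120069879, minus strand) spans several other genes and shares exon bases with Gm33858 on the plus strand.

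Marker genes of the NKp46+ILC3, ILC1 and NK cell branch differed in both directions in the same libraries. Of 13 such marker genes, 11 were tested, and 6 were lower at an unadjusted p under 0.05 (Ncr1, Tbx21, Ifng, Il2rb, Xcl1 and Prf1, the last of which passed the filter only through the controls) and 2 higher (Klrk1 and Gzma). Ncr1, which encodes NKp46, was at 31.3 and 35.5 FPKM in controls, as against 5.37 and 6.02 FPKM in Brg1-deficient libraries, and Tbx21, which encodes T-bet, was at 4.21 and 6.04 against 1.28 and 0.90 FPKM. The list's median log2 fold change was -1.23. Its summed level was 719 and 1000 FPKM in controls and 949 and 698 FPKM in Brg1-deficient libraries, so the sums overlapped. Most of each sum was Il2rb, Gzma and Klrk1, of which Gzma and Klrk1 were the higher genes. Ncr1 and Ifng had an adjusted p under 0.05 in limma, whereas neither Cxcr6 nor Cxcr3 passed the unadjusted limit.

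The ratio of Cxcr6 to Ccr6 differed between the groups, which restates the lower Ccr6, since the Cxcr6 levels overlapped. The Cxcr6 level was 2.02 and 2.20 times that of Ccr6 in the control libraries, and 4.76 and 3.91 times in the Brg1-deficient libraries. Of the summed FPKM of the 10 receptors, Cxcr6 made up 53.7% and 58.0% in controls and 68.0% and 66.6% in Brg1-deficient ILC3s. Ccr6 made up 26.6% and 26.3% in controls and 14.3% and 17.04% in Brg1-deficient ILC3s. Both shares separated the groups, but the shares of one library depend on each other.

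**Figure D2:**
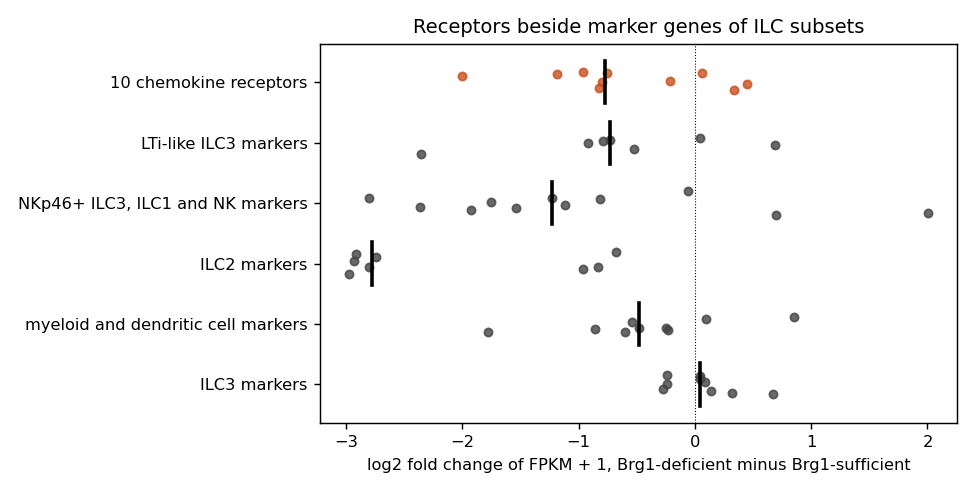
The log2 fold change of FPKM + 1 (Brg1-deficient minus Brg1-sufficient) of the 10 receptors and of marker genes of ILC subsets and myeloid cells, 1 point for each gene tested. Thick bars are list medians, at -0.77 for the receptors, -0.73 for LTi-like markers, -1.23 for NKp46+ILC3, ILC1 and NK markers, -2.77 for ILC2 markers, -0.48 for myeloid markers and 0.05 for ILC3 markers. Some genes passed the filter only through the controls, which favours a lower value. They are 4 of the 8 ILC2, 1 of the 11 NKp46+ILC3, ILC1 and NK and 1 of the 9 myeloid markers. Another 1 of the myeloid markers passed only through the Brg1-deficient group.

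Ccr9, the receptor for Ccl25, which the small intestinal epithelium secretes, was lower. It was at 5.74 and 7.02 FPKM in controls, as against 4.46 and 2.28 FPKM in Brg1-deficient libraries. The groups did not overlap, and the Brg1-deficient libraries were further apart than the controls. In log2, the fold change was -0.80 (95% interval -1.58 to -0.02, adjusted p = 0.385 from limma) and went to -0.43 without Brg1-deficient library 2 and to -1.16 without Brg1-deficient library 1. Exons of Ccr9 (chromosome 9, 123678439 to 123784330, plus strand) overlap those of Slc6a20a on the opposite strand, among others, and Slc6a20a was itself lower, at 3.45 and 3.8 FPKM in controls and 1.8 and 0.56 FPKM in Brg1-deficient libraries. The part of shared reads in the values of Ccr9 was not tested.

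Cxcr4, the receptor for Cxcl12 that holds blood cell precursors in the marrow, was at 8.34 and 12.2 FPKM in controls, as against 6.21 and 5.03 FPKM in Brg1-deficient libraries. The groups did not overlap. On the log2 scale the fold change was -0.75 (95% interval -1.37 to -0.13, adjusted p = 0.315 from limma), and without Brg1-sufficient library 2 it was -0.50. Cxcr4 (chromosome 1, 128588199 to 128592293, minus strand) overlaps no other gene.

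Ccr2, the receptor for Ccl2 on monocytes and on ILC precursors, was at 6.79 and 7.91 FPKM in controls, as against 2.10 and 3.33 FPKM in Brg1-deficient libraries. The groups were well apart, with the Brg1-deficient mean at 36.9% of the control mean. Its log2 fold change was -1.19 (95% interval -1.83 to -0.54, adjusted p = 0.159 from limma) with a range of -1.43 to -0.94 over the fits that each lacked 1 library. Ccr2 lies on chromosome 9 (124101950 to 124113557, plus strand). Of the 50-base stretches of its longest transcript, 2.27% also occur in transcripts of other genes.

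Ccr4, the receptor for Ccl17 and Ccl22 on ILC2s and some T cells, was at 3.06 and 2.07 FPKM in controls, as against 1.69 and 0.48 FPKM in Brg1-deficient libraries. The groups did not overlap, but the log2 fold change of -0.82 (95% interval -1.84 to 0.19, adjusted p = 0.486 from limma) did not pass. It was -0.39 without Brg1-deficient library 2 and -1.25 without Brg1-deficient library 1. With a pseudocount of 0.1 FPKM in place of 1, the log2 fold change of Ccr4 (chromosome 9, 114490316 to 114504916, minus strand) was -1.36. Of its 50-base stretches, 1.60% occur in transcripts of other genes.

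Some markers of other cells were lower together with these receptors of low level. Of 10 ILC2 marker genes, 8 were tested and 5 were lower at an unadjusted p under 0.05 (Il17rb, Il4, Il5, Klrg1 and Hs3st1), beside 6.47% of all genes. Il4, Il5, Il1rl1 and Il9r passed the filter only through the controls, and of the 4 that passed in both groups 3 were lower. The 10 ILC2 markers summed to 404 and 168 FPKM in the 2 control libraries and to 86.5 and 118 FPKM in Brg1-deficient libraries. Most of the Brg1-deficient sums was Gata3, at 183 and 110 FPKM in controls and 74.5 and 105 FPKM in Brg1-deficient libraries. Brg1-sufficient library 1 was the highest, but library 2 was also above both Brg1-deficient libraries in each of the 5 lower genes. For Hs3st1 the values were 104 and 28.4 FPKM in controls, as against 7.08 and 7.44 FPKM. Il13 was listed at 0 in both Brg1-deficient libraries. Without Brg1-sufficient library 1, the log2 fold change was -0.62 for Ccr4, -1.28 for Ccr2 and -1.03 for Ccr6. Of 11 myeloid and dendritic cell markers, 9 were tested, of which 2 were lower (Adgre1 and Zbtb46) and 1 higher (Fcgr1, which passed the filter only through the Brg1-deficient group) at an unadjusted p under 0.05. Their summed level was 190 and 364 FPKM in controls and 123 and 304 FPKM in Brg1-deficient libraries. Library 2 was thus the higher of each group in the myeloid sum. Zbtb46 was at 40.4 and 31.1 FPKM in controls, as against 12.2 and 7.51 FPKM in Brg1-deficient libraries. Flt3 and Itgax, on the same list, stayed at or below 1.01 FPKM, and which cells express Zbtb46 here was not tested. Of 9 T cell markers, 7 were tested and 5 were lower (Cd3d, Cd3e, Cd3g, Trbc1 and Trbc2). Their sum was 387 and 236 FPKM in controls and 94.98 and 92.4 FPKM in Brg1-deficient libraries, and the donors lacked Rag1 and the hosts Rag2. Of 6 B cell and plasma cell markers, which summed to between 25.8 and 49.4 FPKM, 2 were tested, of which Cd79b was lower and Ighm higher, and Ms4a1 and Pax5 stayed at or below 0.32 FPKM. Mast cell markers summed to between 6.73 and 10.8 FPKM and 1 of the 5, Cpa3, was tested and did not pass. Epithelial markers summed to between 2.97 and 4.25 FPKM, and of the 2 tested Krt8 was higher and passed the filter only through the Brg1-deficient group. Stromal and endothelial markers summed to between 64.3 and 89.7 FPKM, nearly all of it Pecam1, and of the 5 only Col3a1 and Pecam1 were tested, neither of which passed. The part of other cells in the receptor differences was not tested.

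The order of the receptors was the same in both groups for the upper 5 and differed below. In Brg1-sufficient ILC3s it ran from Cxcr6 (412 FPKM), Ccr6 (195), Cxcr5 (64.5) and Ccr7 (33.4) to Cxcr4 (10.3), Ccr2 (7.35), Ccr9 (6.38), Cxcr3 (3.64), Ccr4 (2.57) and Cx3cr1 (1.75 FPKM). Ccr2 and Ccr9 were the only neighbours in this order whose libraries overlapped. In Brg1-deficient ILC3s, Cxcr6 (428 FPKM), Ccr6 (99.3) and Cxcr5 (81.8) were again in this order without overlap. They were followed by Ccr7 (7.08), Cxcr4 (5.62), Cxcr3 (5.41), Ccr9 (3.37) and Ccr2 (2.72 FPKM), each overlapping the next. Cx3cr1 (1.42 FPKM) and Ccr4 (1.09 FPKM), at the end, also overlapped.

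The other receptors of the family were read from a list of 13, of which 5 were tested and 8 stayed at or below 0.57 FPKM in every library. Of the 5, 3 were lower by the limits of the gene ontology analysis (Ccr1, Ccr8 and the scavenging receptor Ackr3) and 0 higher, against 4.37% and 3.85% of all genes. Ccr8 passed the filter only through the controls and had to differ, and of the 4 that passed in both groups 2 were lower. Ccr1, an inflammatory receptor of myeloid cells and lymphocytes, was at 6.38 and 5.45 FPKM in controls, as against 1.97 and 2.46 FPKM in Brg1-deficient libraries. Ccr8, a receptor of ILC2s and regulatory T cells, was at 51.7 and 8.41 FPKM in controls, beside 0.23 and 0.24 FPKM in Brg1-deficient ILC3s. The log2 fold changes of Ccr1 and Ccr8 were -1.11 and -4.17 (limma, adjusted p = 0.152 and 0.121). Ackr3, which binds Cxcl12 as Cxcr4 does, was at 28.1 and 23.4 FPKM in controls, as against 16.6 and 12.5 FPKM in Brg1-deficient libraries, and its log2 fold change was -0.79 (limma, adjusted p = 0.221). Ccrl2, an atypical receptor that presents chemerin, was high and its log2 fold change was -0.19 (limma, adjusted p = 0.621). Of the 14 receptors that passed the filter in both groups, 11 had a log2 fold change below 0, as had 46.5% of all genes tested, and those above 0 were Cxcr3, Cxcr5 and Cxcr6.

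**Figure D3:**
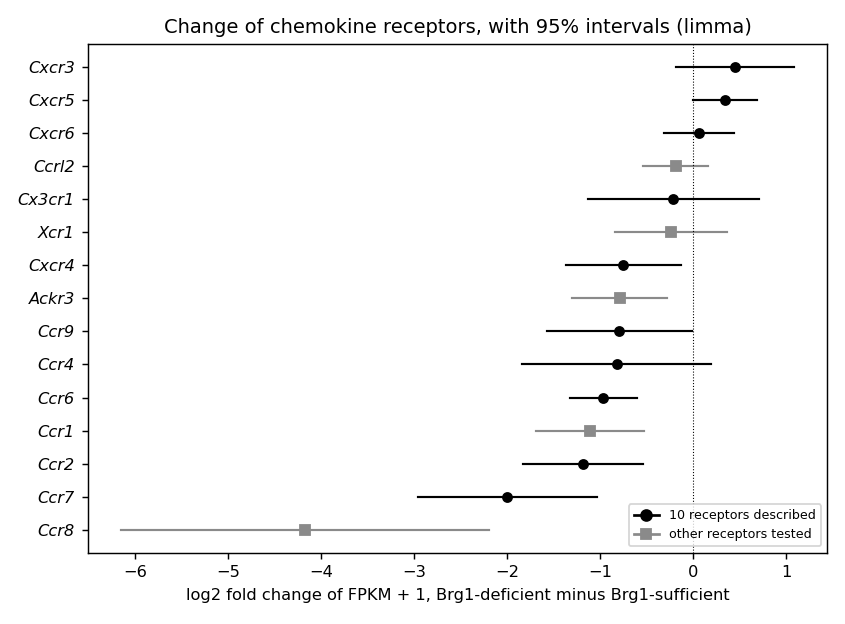
The log2 fold change of FPKM + 1 (Brg1-deficient minus Brg1-sufficient) of the 15 chemokine receptors tested, with 95% intervals from limma. Black circles are the 10 receptors described and grey squares the others tested. The intervals of 8 receptors lie wholly below 0, including Ccr8, which passed the filter only through the controls, none lies above 0, and Cxcr3, Cxcr5 and Cxcr6 have the 3 highest values.

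Of the 10 receptors, 6 are on chromosome 9 (Ccr2, Ccr4, Ccr9, Cx3cr1, Cxcr5 and Cxcr6). Ccr9, Cxcr6, Xcr1, Ccr1, Ccr1l1, Ccr3 and Ccr2 follow each other there within 435.1 kb, from 123678439 to 124113557 on GRCm38. Of these 7 receptors, 5 were tested and 3 were lower at an unadjusted p under 0.05 (Ccr1, Ccr2 and Ccr9, all counted above). The share of all genes tested was 6.47%. Cxcr6, between Ccr9 and Xcr1, and Xcr1 itself, whose log2 fold change was -0.24 (limma, adjusted p = 0.713), were not. Lztfl1, which lies within the Ccr9 locus on the opposite strand, was higher, from 17.8 and 24.6 FPKM in controls to 36.1 and 40.3 FPKM in Brg1-deficient ILC3s (log2 fold change 0.84, adjusted p = 0.189 from limma, past the unadjusted limit of 0.05). This stretch of the chromosome thus held genes that were lower and a gene that was higher.

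The genes of the ligands were also measured, since ILC3s express some of them. Of 16 ligands of the 10 receptors, 12 were tested, and 2 were lower and 3 higher at an unadjusted p under 0.05. Of these, Ccl21a passed the filter only through the controls and Cxcl11 only through the Brg1-deficient group, and of the 9 that passed in both groups 1 was lower and 2 higher. Cxcl9, Cxcl10 and Cxcl11 are the ligands of Cxcr3. Cxcl10 was at 74.0 and 88.6 FPKM in controls, as against 269 and 218 FPKM in Brg1-deficient libraries, or 1.57 ± 0.173 in log2 (SE, limma adjusted p = 0.0548). Cxcl9 was at 2.50 and 4.81 against 7.26 and 6.40 FPKM, and Cxcl11 at 0.55 and 0.66 against 4.08 and 3.41 FPKM. In all 3, both Brg1-deficient libraries were above both controls.

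Ccl21a and Cx3cl1, which bind Ccr7 and Cx3cr1, were lower. Ccl21a was at 5 and 10.2 FPKM in controls, was listed at 0 in Brg1-deficient library 1 and was at 0.46 FPKM in library 2. Cx3cl1 was at 107 and 96.3 FPKM in controls, as against 48.2 and 22.5 FPKM in Brg1-deficient libraries. Ccl20, the ligand of Ccr6, and Cxcl12 and Cxcl13 were not tested, with values at or below 1.36 FPKM. Cxcl16, the ligand of Cxcr6, was at 10.1 and 13.3 FPKM in controls, as against 6.55 and 9.56 FPKM in Brg1-deficient libraries (log2 fold change -0.49, adjusted p = 0.498 from limma).

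**Figure D4:**
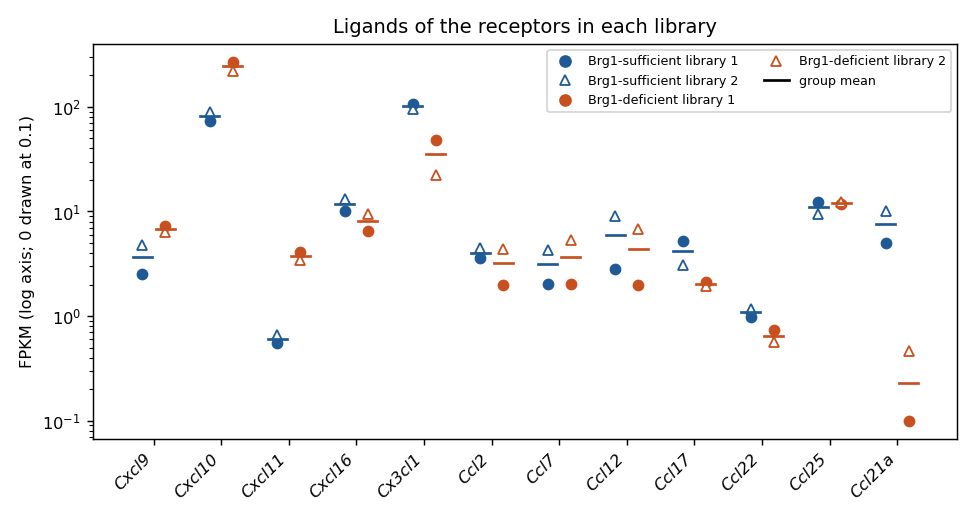
FPKM (log axis, 0 drawn at 0.1) of the 12 ligand genes tested, in each library. Filled circles are library 1 and open triangles library 2, and bars are group means. Cxcl9, Cxcl10 and Cxcl11 have both Brg1-deficient points above both control points, and Cx3cl1, Ccl21a, Cxcl16, Ccl17 and Ccl22 have both below.

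Genes that relay chemokine receptor signals, downstream of all 10 receptors, were also read from a list. Of 25 such genes, 23 were tested. At an unadjusted p under 0.05 (limma), 1 was lower and 0 were higher, beside 6.47% and 6.12% of all genes. The list thus held no larger share of lower or higher genes than all genes did, and its median log2 fold change was -0.02. The lower gene was Grk3, a kinase that desensitizes G protein-coupled receptors, at 6.35 and 4.46 FPKM in controls, as against 0.90 and 1.54 FPKM in Brg1-deficient libraries. Gnai2, the inhibitory G protein subunit through which chemokine receptors signal, was at 28.0 and 25.0 against 20.6 and 22.3 FPKM, and Dock2, a Rac activator needed for lymphocyte migration, was at 99.1 and 116 against 128 and 143 FPKM.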

How the data were processed

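Gene expression was measured by RNA-seq in 4 libraries of sorted small intestinal ILC3s, 2 for each donor genotype, which were matched to the deposited columns by their titles. According to the methods and the submitters' processing notes, the authors mapped single-end reads with STAR (2.5) to GRCm38.p5 and estimated expression with RSEM (1.2). The authors deposited 1 FPKM value for each gene and library. Sorted values were nearly equal between libraries, and the sources used here name no step that makes them so. The count test of the authors was not repeated, since only FPKM values were used.

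FPKM values were tested as log2(FPKM + 1) in R 4.3.3 by limma 3.58.1, using lmFit and a trended eBayes without a block, over genes with a mean above 1 FPKM in either group, with Benjamini-Hochberg adjustment over all 14739 genes. Two-sided p-values were used throughout. Replicates are the biological duplicates that the methods name. The fit was tested on simulated FPKM with independent noise and known changes in genes above 5 FPKM. This checked the code, and it covered neither changes in genes of lower level nor a step that equalizes libraries. The receptors and gene lists were chosen with earlier results of these data known, so no list was tested. All 10 receptors are named, and genes of the other lists are named when their unadjusted p was under 0.05, with a few others given as values. Lists share Lta between ILC3 and LTi-like markers. Gene positions, exons and transcripts came from GENCODE M21 on GRCm38, and promoters from RefSeq. The alternatives were another pseudocount, no filter, no trend, rescaling, the replicate number as a block, and leaving out each library. Some listed items are not reported here, and counts of lists leave them out.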

Additional observations from a re-analysis of the deposited data

How the results depend on the processing

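Of the 10 receptors, 5 were lower by the limits of the gene ontology analysis, and this became 3 with no filter on low FPKM (Ccr2, Ccr6 and Ccr7) and ranged from 0 to 4 over the fits that lacked 1 library. Over all genes, the 33 lower and 12 higher genes of limma (adjusted p limit 0.05) became 0 and 0 with no filter (1400 and 1308 at an unadjusted p under 0.05), 0 and 0 without trend (965 and 903 unadjusted), and 0 and 0 in each fit without one library (507 to 1675 and 735 to 1507 unadjusted). With no filter, 44235 genes entered the adjustment. What caused the remaining shifts was not tested. When the replicate number was added as a replicate block, 2 of the receptors were lower at an adjusted p under 0.05 (Ccr6 at 0.018 and Ccr7 at 0.00345), and all genes gave 248 lower and 150 higher. Nothing in the labels says that the numbers pair libraries, and libraries with the same number deviated from their group means with a correlation of -0.00039 across genes. The log2 fold change of Cxcr6 ranged from -0.067 (without Brg1-sufficient replicate 1) to 0.19 over the fits that lacked 1 library, beside 0.06 with all libraries, and that of Cx3cr1 from -0.55 to 0.13 (without Brg1-deficient replicate 1), beside -0.21. Of the 90 refits of single receptors, 86 kept the direction and the side of the adjusted p limit, 2 reversed and 2 passed the limit only with the block. In the 8 receptors whose groups did not overlap, leaving out a library cannot turn the direction. The depth of each library is unknown, so counting error of receptors at a few FPKM was not assessed.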
